A study of Mus musculus with 6 samples.

Results

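The major urinary protein genes are described here as 10 members, Mup1, Mup3, Mup7, Mup9, Mup10, Mup11, Mup16, Mup17, Mup20 and Mup21, among 34745 genes counted in each library. They were taken by symbol, and the symbols were chosen with their levels in this same contrast known, so their differences between groups are given as a description without a test. All 10 passed the low-count filter. Hepatocytes of 6 male FOXA2flox/flox mice aged 12 weeks were sequenced by poly-A selected, paired-end RNA-seq, with the numbered titles taken as 1 library per mouse. All mice carried the floxed FOXA2 alleles and received 0.25 ml/kg CCl4, a hepatotoxin that causes fibrosis, 2 times per week for 4 weeks. In 3 of them, FOXA2f/f, AAV8-TBG-Control had been injected through the tail vein 2 weeks earlier, and in the other 3, FOXA2H-KO, AAV8-TBG-Cre, in which the hepatocyte-specific TBG promoter drives Cre. Both groups were fibrotic, so no comparison with uninjured liver is possible. The hepatocytes were obtained by collagenase perfusion and low-speed centrifugation, which does not remove every other liver cell.

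Major urinary proteins (MUPs) are small secreted lipocalins, beta-barrel proteins with a hydrophobic pocket. The mouse liver makes them, the kidney passes them into the urine, and there they carry volatile pheromones and act as scent signals themselves. Their genes lie in a cluster of recent duplicates, are among the most strongly expressed in the liver of adult male mice, and are known to depend on pulsatile growth hormone acting through STAT5, on thyroid hormone and on glucocorticoid. MUP20, also called darcin, is the male pheromone that attracts females.

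The copies differ so little that the sequence itself sets what can be measured. A stretch of 60 coding bases, which lies inside 1 exon in every member, is shown for all 10 because it tells the near-identical copies from the divergent ones. The sequences are those of GENCODE M21 transcripts on GRCm38, from 5′ to 3′, and a capital marks a base that differs from the most frequent base at that position among the 10 members.
Mup7: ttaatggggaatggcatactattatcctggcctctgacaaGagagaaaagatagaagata
Mup9: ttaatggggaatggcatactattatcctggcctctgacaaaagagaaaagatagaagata
Mup1: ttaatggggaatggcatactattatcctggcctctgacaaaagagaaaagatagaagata
Mup10: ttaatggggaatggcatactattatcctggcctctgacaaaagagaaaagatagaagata
Mup11: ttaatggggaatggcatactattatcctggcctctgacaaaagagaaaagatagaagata
Mup16: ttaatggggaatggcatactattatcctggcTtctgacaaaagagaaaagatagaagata
Mup17: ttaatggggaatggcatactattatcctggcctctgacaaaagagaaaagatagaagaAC
Mup20: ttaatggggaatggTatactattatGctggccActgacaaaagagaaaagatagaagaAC
Mup3: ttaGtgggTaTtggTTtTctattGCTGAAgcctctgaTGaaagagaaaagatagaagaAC
Mup21: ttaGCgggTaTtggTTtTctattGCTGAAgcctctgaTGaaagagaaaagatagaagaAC
The stretch was chosen for its many differences: 20 of its 60 positions vary among the members, and the 10 genes have 7 distinct sequences in it. Mup1, Mup9, Mup10 and Mup11 are the same over all 60 bases. In Mup9 it lies at chr4:60421392-60421451 and in Mup20 at chr4:62053553-62053612, both on the minus strand.

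Over the whole coding sequence, 109 of 537 positions aligned in all members vary. The 21 pairs among Mup1, Mup7, Mup9, Mup10, Mup11, Mup16 and Mup17 differ at 1 to 7 coding bases and are 98.7% to 99.8% identical, and these 7 genes are called the near-identical copies below. Mup20 is 91.5% identical to Mup9. Mup3 and Mup21 are 95.7% identical to each other, while Mup3 is 86.0% and Mup21 85.0% identical to Mup9. This division rests on sequence alone.

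All members are protein-coding genes on the minus strand of chromosome 4, inside a cluster that spans chr4:59956804-62150863 on GRCm38, or 2.19 Mb. From the lower coordinate upward they are Mup7 (chr4:60066469-60070475), Mup9 (chr4:60418046-60421952), Mup1 (chr4:60498012-60501960), Mup10 (chr4:60578260-60582199), Mup11 (chr4:60658466-60662411), Mup16 (chr4:61515592-61519531), Mup17 (chr4:61591929-61595871), Mup20 (chr4:62050234-62054158), Mup3 (chr4:62083476-62087342) and Mup21 (chr4:62147932-62150863). The divergent genes Mup20, Mup3 and Mup21 thus stand side by side at the upper end of the cluster. The annotation lists 49 Mup genes, 22 of them coding and 27 pseudogenes, and 0 other coding genes lie within the cluster. No exon of a member overlaps an exon of another gene in the files.

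How much of a member can be told apart from other transcripts was measured by splitting its transcripts into words of 50 bases and asking, on both strands, which words occur in no other annotated gene. The share was 86.7% in Mup3, 80.7% in Mup21 and 49.5% in Mup20. Among the near-identical copies it ranged from 8.29% in Mup16, through 13.3% in Mup7, to 38.4% in Mup1. How the counting treated fragments that match several copies is not stated in the sources used here, so that the value of a single near-identical copy is uncertain and the sum over copies is given beside it.

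The 6 libraries held 20983455 to 28327765 counted fragments. The targeted gene was checked first: Foxa2 had 442, 246 and 516 counts in FOXA2f/f replicates 1, 2 and 4 and 28, 19 and 35 in FOXA2H-KO replicates 1, 2 and 4. The groups did not overlap, and Foxa2 fell by 3.85 on the log2 scale (SE 0.31, edgeR quasi-likelihood test with Benjamini-Hochberg adjustment, adjusted p = 0.0313), to 6.98% of the FOXA2f/f mean. The call was lost when any one library other than FOXA2f/f replicate 2 was left out, with adjusted p up to 0.499, while the fall itself stayed between 3.63 and 4.17 over all left-out libraries. Foxa2 was the only gene of 14417 tested, or 0.00694%, with an adjusted p under 0.05 and a change of at least 2-fold, and 745 genes, or 5.17%, had an unadjusted p under 0.05. FOXA2f/f replicate 2 was the highest FOXA2f/f library for all 10 members, and the value of each member without it is given beside its result.

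Levels between genes were compared per transcript length, as FPKM, the fragments counted on a gene divided by its length and by the library total. Mup20 was the highest member, with an FPKM of 2551 ± 1992 in FOXA2f/f and 3784 ± 1153 in FOXA2H-KO (mean ± SD, n = 3 libraries per group here and below), which placed it at rank 20 of all genes by mean FPKM. Mup3 followed in FOXA2f/f at 1130 ± 543, then Mup7 at 385 ± 544. In FOXA2H-KO the order of those 2 means was the other way round, with Mup7 at 1729 ± 814 and Mup3 at 1490 ± 88.7, and their libraries overlapped. Mup9 at 57.7 ± 38.2 and Mup11 at 40.6 ± 24.4 formed the middle of the range in FOXA2f/f. Mup21, Mup10, Mup16, Mup1 and Mup17 followed with means of 14.6, 8.76, 2.14, 1.49 and 0.274. In FOXA2f/f each member overlapped the next one in this order, whereas in FOXA2H-KO only Mup7 with Mup3 and Mup10 with Mup21 did so.

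The FPKM order depends on gene lengths that the authors used. The length implied by FPKM was 928 bases for Mup20, the same as its exons in GENCODE M21, but 2842 bases for Mup9 against 1499, 1744 for Mup3 against 1068 and 1711 for Mup7 against 1033. Their FPKM are lower by that ratio than the M21 exon length would give. When the mean scaled counts in FOXA2f/f were instead divided by the number of unique 50-base words, Mup20 stayed first, with Mup7 next and Mup3 after it. By the same measure in FOXA2H-KO, Mup7 came first at 1966 per 100 words, before Mup20 at 769 and Mup3 at 258. Which member is highest in FOXA2H-KO thus depended on the measure.

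**Figure D1:**
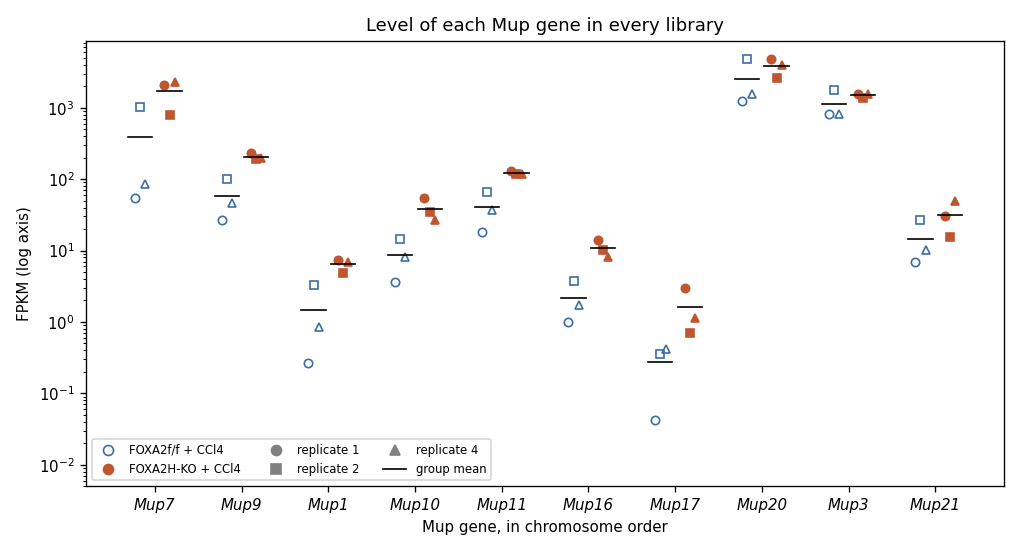
FPKM on a log axis of the 10 Mup genes in chromosome order, with open blue symbols for the 3 FOXA2f/f libraries, filled orange symbols for the 3 FOXA2H-KO libraries, symbol shapes for replicates 1, 2 and 4, and a line at each group's mean. FOXA2f/f replicate 1 is the lowest library for every member, and FOXA2f/f replicate 2 (square) reaches the FOXA2H-KO range in Mup7, Mup20, Mup3 and Mup21.

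Differences between the groups are given in CPM, counts divided by the TMM-adjusted library size and scaled as FPKM are, or as fitted log2 fold changes of FOXA2H-KO minus FOXA2f/f. All 10 members had a higher fitted level in FOXA2H-KO, 7 of them by at least 2-fold, against 1.45% of all genes tested, and in 6 of them the libraries of the 2 groups did not overlap, against 4.54% of all genes higher in that way. Since the members were chosen on this contrast, nothing is read from those shares. The members at or over 2-fold were the 7 near-identical copies, with fitted log2 fold changes from 1.43 to 2.40, and those of the 3 divergent genes were 0.23 to 0.96. The median over the 10 members was 1.80, and over all genes tested -0.012. By edgeR 0 members were called and 6 had an unadjusted p under 0.05, against 5.17% of all genes. DESeq2 called 3, Mup9, Mup10 and Mup16, against 0.174% of all genes called higher, and no use is made of these calls for the same reason.

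Mup7 varied most among the FOXA2f/f libraries, with a coefficient of variation of 146%. It stood at 103, 1994 and 133 CPM in FOXA2f/f replicates 1, 2 and 4 and at 3162, 1343 and 3989 CPM in FOXA2H-KO replicates 1, 2 and 4. FOXA2f/f replicate 2 lay above FOXA2H-KO replicate 2 and 19.4 times above the lowest FOXA2f/f library, so the groups overlapped. The fitted log2 fold change was 1.93 (SE 1.09), and it was 4.59 without FOXA2f/f replicate 2. With the replicate block, a term for the replicate number in the fit, it was 3.54, and limma on log2(FPKM + 1) gave 3.20. Among the near-identical copies, Mup7 was the only one with overlapping groups.

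Mup9 stood at 83.3, 328 and 118 CPM in FOXA2f/f and at 580, 528 and 565 CPM in FOXA2H-KO, in the same order of replicates. All 3 FOXA2H-KO libraries lay close together and above the highest FOXA2f/f library. The log2 fold change was 1.66 (SE 0.47), and 2.47 without FOXA2f/f replicate 2.

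Mup11 had the tightest FOXA2H-KO group, at 248, 245 and 255 CPM, a coefficient of variation of 2.12%. The FOXA2f/f libraries stood at 42.1, 163 and 72.0 CPM, a coefficient of variation of 68.2%. Its log2 fold change was 1.43 (SE 0.44), the smallest among the near-identical copies, and 2.13 without FOXA2f/f replicate 2.

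The other near-identical copies were far less abundant than Mup7. Mup10 stood at 6.01, 25.2 and 11.1 CPM in FOXA2f/f and at 71.9, 52.1 and 41.0 CPM in FOXA2H-KO, with a log2 fold change of 1.97 (SE 0.48), or 2.68 without FOXA2f/f replicate 2. Mup16, the member with the smallest share of unique sequence, had 31, 96 and 59 counts against 420, 305 and 217, and a log2 fold change of 2.18 (SE 0.49), or 2.96 without the same library. In Mup10 and Mup16 the groups did not overlap, and FOXA2H-KO replicate 1 was the highest library.

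Mup1 had 15, 153 and 53 counts in FOXA2f/f and 390, 263 and 330 in FOXA2H-KO. The groups did not overlap although the FOXA2f/f libraries spanned 13.0-fold, and the log2 fold change was 1.94 (SE 0.76), or 3.48 without FOXA2f/f replicate 2 and 2.58 with the replicate block. Mup17 was near the limit of what these libraries could measure, with 1, 7 and 11 counts against 66, 16 and 23. Its log2 fold change of 2.40 (SE 0.75) was the highest of the 10 and rests on the fewest fragments. That place depended on single libraries: without FOXA2H-KO replicate 1 it was 1.70, below Mup16 at 2.00 in the same fit, and without FOXA2f/f replicate 2 it was 2.70, below Mup7 at 4.59.

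Mup20, the darcin gene, stood at 1271, 5171 and 1306 CPM in FOXA2f/f and at 4011, 2337 and 3681 CPM in FOXA2H-KO. The highest of all 6 libraries was FOXA2f/f replicate 2. The log2 fold change was 0.37 (SE 0.57), smaller than its standard error, and it was 0.05 without FOXA2f/f replicate 4 and 1.38 without FOXA2f/f replicate 2.

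Mup3 behaved in the same manner, at 1544, 3525 and 1301 CPM against 2407, 2379 and 2694 CPM. Its log2 fold change was 0.23 (SE 0.38), 0.81 without FOXA2f/f replicate 2 and -0.02 without FOXA2f/f replicate 4, so that its direction rested on 1 library. Mup21, the gene closest to Mup3 in sequence, stood at 5.07, 20.9 and 6.23 CPM against 18.2, 10.4 and 33.6 CPM. Its log2 fold change was 0.96 (SE 0.61), 1.87 without FOXA2f/f replicate 2 and 0.44 without FOXA2H-KO replicate 4.

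Every member had the same arrangement in 1 respect: FOXA2f/f replicates 1 and 4 both lay below all 3 FOXA2H-KO libraries in 10 of 10 genes. That count sets FOXA2f/f replicate 2 aside, and the share of all genes with this arrangement is not given. Since the members were chosen on this contrast, nothing is read from it. FOXA2f/f replicate 2 was above at least 1 FOXA2H-KO library in 4 of 10, namely Mup7, Mup20, Mup3 and Mup21, and was the highest FOXA2f/f library by CPM in 10 of 10. FOXA2H-KO replicate 2 was the lowest of its group in 8 of 10. The 10 genes share their libraries and, in part, their reads, and are not 10 separate observations.

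**Figure D2:**
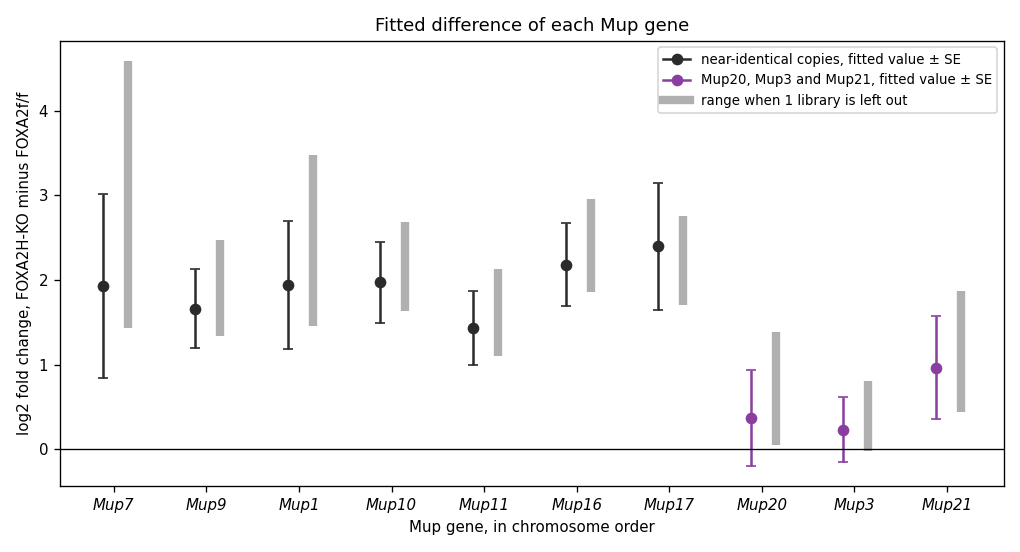
Fitted log2 fold change (FOXA2H-KO minus FOXA2f/f) ± SE of the 10 Mup genes in chromosome order, black for the near-identical copies and purple for Mup20, Mup3 and Mup21, with a grey bar over the range of values when single libraries were omitted. Black points lie between 1.43 and 2.40 and purple points between 0.23 and 0.96, and the upper end of the grey bar comes from leaving out FOXA2f/f replicate 2 in every gene except Mup17.

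Because fragments can be exchanged between copies, the members were also summed. The 10 genes together held 3056, 11241 and 2951 CPM in FOXA2f/f replicates 1, 2 and 4 and 10530, 6919 and 11285 CPM in FOXA2H-KO replicates 1, 2 and 4. The groups overlapped, with FOXA2f/f replicate 2 at the level of the upper FOXA2H-KO libraries. The means were 5749 ± 4756 and 9578 ± 2334 CPM, a log2 difference of 0.74, and without FOXA2f/f replicate 2 the difference was 1.67. As a share of all counted fragments the sum ran from 0.278% in FOXA2f/f replicate 1 to 1.18% in FOXA2H-KO replicate 1. In a bulk sample, fewer cells that express a gene and less RNA per cell cannot be told apart.

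Both kinds of member were also summed apart. The 7 near-identical copies together stood at 236, 2524 and 338 CPM in FOXA2f/f against 4095, 2192 and 4877 CPM in FOXA2H-KO, a log2 difference of 1.85 between the means. Mup3, Mup20 and Mup21 together stood at 2820, 8717 and 2613 CPM against 6436, 4727 and 6408 CPM, a log2 difference of 0.31. Both sums overlapped between the groups through FOXA2f/f replicate 2. The near-identical copies without Mup7 stood at 133, 531 and 205 CPM against 933, 849 and 888 CPM, and there the groups did not overlap.

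The make-up of the Mup fragments differed between libraries. Mup7 held 3.36%, 17.7% and 4.52% of the counts of the 10 members in FOXA2f/f and 30.0%, 19.4% and 35.3% in FOXA2H-KO. Mup3 held 50.5%, 31.4% and 44.1% against 22.9%, 34.4% and 23.9%, and Mup20 41.6%, 46.0% and 44.2% against 38.1%, 33.8% and 32.6%. The Mup7 share was higher in every FOXA2H-KO library, the Mup20 share was lower in each, and the Mup3 share overlapped. These shares are ratios within a library and show unequal change, not which gene moved.

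Ratios between single members separated them further. Per length, Mup7 stood at 0.0678 to 1.51 times Mup3 across the 6 libraries, a range of 22.3-fold, while Mup20 stood at 1.55 to 3.13 times Mup3, a range of 2.02-fold. In counts, Mup11 ran between 0.428 and 0.612 times Mup9, a range of 1.43-fold. Mup16 stayed at 0.0159 to 0.0160 times Mup9 in the FOXA2f/f libraries and at 0.0178 to 0.0266 times in FOXA2H-KO. Over all 6 libraries the Mup16 ratio spanned 1.67-fold and that of Mup7 to Mup9 6.22-fold, from 1.13 to 7.06, although Mup7 and Mup9 are 99.1% identical in coding sequence.

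**Figure D3:**
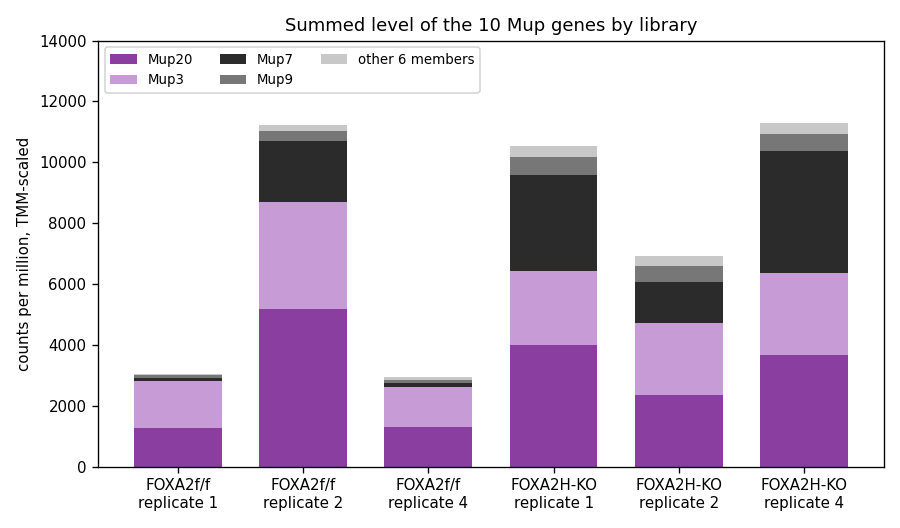
Stacked bars of CPM (TMM-scaled, axis from 0) of the 10 Mup genes in each library, split into Mup20, Mup3, Mup7, Mup9 and the other 6 members. FOXA2f/f replicates 1 and 4 reach 3056 and 2951 CPM and FOXA2f/f replicate 2 reaches 11241, within reach of the FOXA2H-KO libraries at 6919 to 11285, and the dark Mup7 block is thin only in FOXA2f/f replicates 1 and 4.

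Across the 6 libraries the log2 CPM of the members moved together. Pearson's r was between 0.82 and 0.99, with a median of 0.96, for the 21 pairs of near-identical copies, and between 0.85 and 0.95 for the 3 pairs among Mup20, Mup3 and Mup21. For the 21 pairs that join both kinds, it was between 0.47 and 0.94, with a median of 0.77. When each group's mean was taken out first, the median r was 0.92, 0.90 and 0.84 for these sets of pairs. The values are a description over 6 libraries that the genes share, and copies of like sequence may share reads.

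The files held another 38 Mup genes, 11 of them coding. Only 10 passed the low-count filter, and the 28 others had at most 67 counts in all libraries together. Of the 10 that passed, all were higher by fit in FOXA2H-KO, with log2 fold changes from 0.63 to 2.55, 9 by at least 2-fold, against 1.45% of all genes tested, and the groups did not overlap in 8, against 4.54% of all genes higher in that way. They share reads with the members, and nothing is read from these shares. The 5 with most counts were Mup2, Mup8, Mup-ps19, Mup18 and Mup14.

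Mup2 and Mup8, which encode central MUPs of the same kind, had mean FPKM of 502 and 289 in FOXA2f/f and 1573 and 933 in FOXA2H-KO, below Mup20 in both groups and above Mup9. Mup2 stood at 387, 1668 and 571 CPM in FOXA2f/f and at 2707, 2058 and 2517 CPM in FOXA2H-KO (fitted log2 fold change 1.47, or 2.34 without FOXA2f/f replicate 2). Mup8 stood at 190, 908 and 296 CPM against 1461, 1107 and 1413 CPM (1.51, or 2.45 without that library). Neither overlapped between groups. Mup18 and Mup14 had log2 fold changes of 1.41 and 1.74, or 2.08 and 2.81 without that library, also without overlap.

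The pseudogene Mup-ps19 shares 89.8% of its 50-base words with Mup20, and its counts were 7.25% to 9.95% of those of Mup20 in all 6 libraries. It stood at 97.5, 402 and 94.6 CPM against 345, 206 and 366 CPM, so that FOXA2f/f replicate 2 was the highest library, as it was for Mup20. With all 48 Mup genes summed, the level was 3768, 14386 and 3983 CPM in FOXA2f/f and 15316, 10544 and 15841 CPM in FOXA2H-KO, a log2 difference of 0.91.

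The labelled cell type was checked against marker genes. The 10 hepatocyte markers, among them Alb and Apoa1, summed to 112856 to 156181 CPM in FOXA2f/f and 106690 to 139461 CPM in FOXA2H-KO, and all were detected. Other liver cells were present too. The 10 macrophage markers summed to 581 to 2609 CPM in FOXA2f/f and 1301 to 1881 CPM in FOXA2H-KO, the 10 endothelial markers to 267 to 905 and 459 to 583 CPM, and the 10 stellate cell and fibroblast markers to 1058 to 2668 and 1535 to 2546 CPM. The 7 cholangiocyte markers summed to 174 to 368 CPM against 252 to 708 CPM, the 9 lymphocyte markers to 1.64 to 8.30 against 4.72 to 7.94 CPM and the 8 neutrophil markers to 11.0 to 99.8 against 20.4 to 31.1 CPM. No gene of these 7 lists was at 0 in all libraries, and 0 of their genes were called by edgeR or DESeq2. An unadjusted edgeR p under 0.05 was found for 1 hepatocyte, 2 cholangiocyte and 4 neutrophil markers, against 5.17% of all genes. Of the markers tested, 6 of 6 for cholangiocytes were higher by fit in FOXA2H-KO (median log2 fold change 0.82), 5 of 7 for neutrophils lower (median -1.94), among them those 4, and 9 of 10 for hepatocytes lower (median -0.12). The medians were 0.32 for macrophage, 0.22 for stellate cell and fibroblast, 0.47 for lymphocyte and -0.01 for endothelial markers.

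The FOXA2f/f libraries had the same order for the hepatocyte marker sum as for the Mup sum. The order was reversed for the macrophage, endothelial, stellate cell and lymphocyte sums, but not for the cholangiocyte and neutrophil sums. FOXA2f/f replicate 2, with the highest Mup level of its group, also had, within that group, the lowest sum of each of the 6 lists for other cell types and the highest sum of hepatocyte markers, 156181 CPM. FOXA2f/f replicate 1 had 143205 CPM of hepatocyte markers and FOXA2f/f replicate 4 had 112856 CPM, with nearly equal Mup sums of 3056 and 2951 CPM. FOXA2H-KO replicate 1 had the lowest hepatocyte sum, 106690 CPM, and a Mup sum of 10530 CPM. The hepatocyte sum spanned 1.38-fold within FOXA2f/f, where the Mup sum spanned 3.81-fold. The part of other cells in the Mup differences was not tested.

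**Figure D4:**
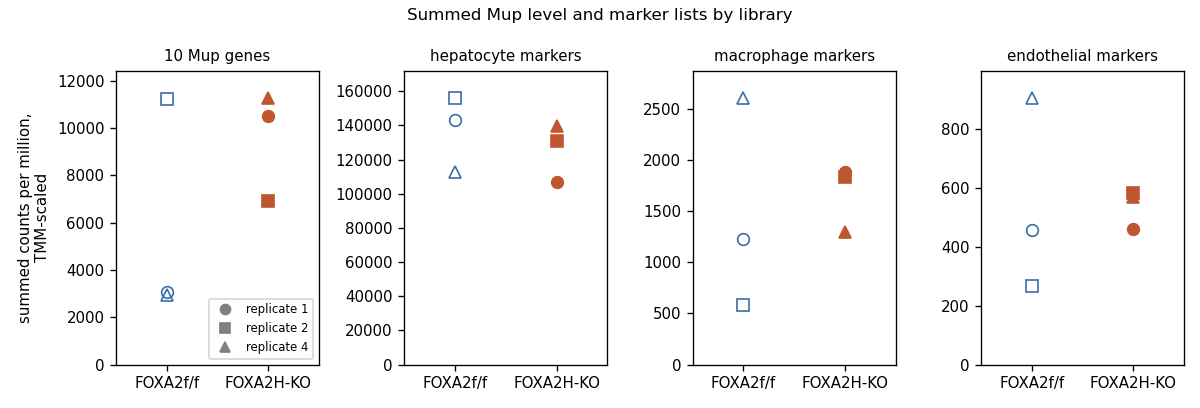
Summed CPM (TMM-scaled, axes from 0) of the 10 Mup genes and of the hepatocyte, macrophage and endothelial marker lists in each library, with open blue symbols for FOXA2f/f, filled orange symbols for FOXA2H-KO and shapes for replicates 1, 2 and 4. The square FOXA2f/f library is highest in Mup genes (11241) and hepatocyte markers (156181) of its group and lowest in macrophage (581) and endothelial markers (267).

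The region just before the start site was read for the 7 members with an entry, Mup3, Mup7, Mup9, Mup10, Mup11, Mup17 and Mup21, from RefSeq on GRCm38.p6. A pair of near-identical copies, Mup10 and Mup11, and the pair Mup3 and Mup21 are shown from 250 to 51 bases upstream of the RefSeq start, since the levels of the pairs varied together across libraries while the differences of the pairs between groups were unlike in size. They are written 5′ to 3′ on the minus strand, and capitals mark the longest run that all 7 windows of 250 bases share.
Mup10: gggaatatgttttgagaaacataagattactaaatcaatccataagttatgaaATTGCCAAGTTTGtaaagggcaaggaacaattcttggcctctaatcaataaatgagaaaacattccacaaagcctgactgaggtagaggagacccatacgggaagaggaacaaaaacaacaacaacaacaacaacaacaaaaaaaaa
Mup11: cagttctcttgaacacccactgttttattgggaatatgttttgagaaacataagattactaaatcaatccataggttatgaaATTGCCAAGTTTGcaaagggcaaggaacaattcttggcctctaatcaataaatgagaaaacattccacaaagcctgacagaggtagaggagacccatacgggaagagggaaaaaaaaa
Mup3: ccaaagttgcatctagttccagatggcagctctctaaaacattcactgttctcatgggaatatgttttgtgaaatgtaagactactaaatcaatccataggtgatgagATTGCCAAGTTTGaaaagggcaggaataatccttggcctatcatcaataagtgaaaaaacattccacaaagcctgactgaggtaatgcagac
Mup21: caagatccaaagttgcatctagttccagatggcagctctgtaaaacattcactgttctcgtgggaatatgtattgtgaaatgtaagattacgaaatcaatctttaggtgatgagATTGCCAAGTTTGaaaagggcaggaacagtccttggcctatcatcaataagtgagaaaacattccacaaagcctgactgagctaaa
They lie at chr4:60582206-60582405, chr4:60662446-60662645, chr4:62087368-62087567 and chr4:62150892-62151091, each outside the annotated bounds of its own gene. Overlap with other annotated genes was not checked. The run of 13 bases, ATTGCCAAGTTTG, was found in 12 of the 14 windows of coding Mup genes with an entry and in 0 other windows among 32851. Over the aligned parts of the 250-base windows, Mup10 and Mup11 were 94.1% identical, Mup3 and Mup21 93.4%, and Mup11 and Mup3 86.5%.

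The 250-base windows were searched on both strands for short motifs. The FOXA core TGTTTAC was in 0 of the 7 member windows and in 3.17% of all windows. Its variant TGTTTGC was in 0 of 7 and in 4.30%, and the variant TATTTAC in 0 of 7 and in 2.73%. The STAT5 motif TTCNNNGAA was in 0 of 7 and in 7.02% of all windows, the HNF1 core GTTAAT in 0 of 7 and 6.43%, and the CEBP motif TTGCNNAA in 0 of 7 and 9.56%. The steroid receptor motif AGAACA was in Mup3 and Mup21 and in 16.1% of all windows. The core promoter element TATATAA was in the windows of Mup3, Mup9, Mup10, Mup17 and Mup21 and in 3.04% of all. It began 31, 30 and 25 bases upstream of the RefSeq start in Mup9, Mup10 and Mup17, and 11 and 8 in Mup3 and Mup21. The windows thus do not cover the same stretch of each copy. With Mup9, the Mup7 window aligned over 113 bases and the Mup11 window over 218. The lack of a match in Mup7 and Mup11 therefore does not show that these genes lack the element. Matches of different motifs may overlap each other. These letters describe the windows only. Looser forms of the motifs and sites farther away were not searched, so 0 matches do not show that a factor has no site there.

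Genes known to act on Mup expression were read from a list for each pathway, tested in the same fit, with p-values adjusted over all 14417 genes. Of the 9 nuclear receptor genes reported here, 5 were higher and 4 lower by fit, with a median log2 fold change of 0.10. By edgeR and by DESeq2 0 of them were called, and 0 had an unadjusted p under 0.05. The glucocorticoid receptor gene Nr3c1 had a log2 fold change of 0.10 (SE 0.13), the thyroid hormone receptor gene Thrb 0.25 (SE 0.18), the related Thra -0.26 (SE 0.24), the estrogen receptor gene Esr1 0.23 (SE 0.14) and the fatty acid receptor gene Ppara 0.36 (SE 0.20), with overlapping groups in each.

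Of 18 genes of growth hormone and STAT5 signalling, 5 were higher and 13 lower by fit, and 0 were called by edgeR or by DESeq2. By edgeR 2 had an unadjusted p under 0.05, against 5.17% of all genes. The median log2 fold change was -0.16. The growth hormone receptor gene Ghr stood at 223, 408 and 235 CPM against 298, 239 and 228 CPM, and its log2 fold change was -0.18 (SE 0.26). FOXA2f/f replicate 2 was thus highest for Ghr as it was for Mup20. It was the lowest FOXA2f/f library for 2 growth hormone target genes, Socs2 at 1.15 CPM and Cish at 1.97 CPM. For the target gene Igf1 it lay in the middle of its group, at 444 CPM between 531 and 342 CPM, and for Igfals it was the highest. Stat5b, the main carrier of the growth hormone signal in the liver, had a log2 fold change of -0.06 (SE 0.15), and the target genes Igf1 and Socs2 had -0.01 (SE 0.25) and 0.42 (SE 0.78). Cish, another target gene, stood at 8.42, 1.97 and 8.42 CPM against 1.84, 2.69 and 5.46 CPM, with overlap. Igfals, which encodes the subunit that stabilises IGF1 in blood, stood at 38.5, 52.3 and 43.3 CPM against 24.6, 23.3 and 31.8 CPM, without overlap, and its log2 fold change of -0.75 (SE 0.18) missed the threshold (edgeR adjusted p = 0.607). Stat5a, at 8.54 ± 0.717 against 11.9 ± 1.89 CPM, did not overlap either (edgeR adjusted p = 0.898), and Insr had a log2 fold change of -0.22 (SE 0.14).

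Of 14 liver transcription factors and chromatin regulators, Foxa2 itself was the 1 gene called, and apart from it 0 had an unadjusted p under 0.05. The related factors Foxa1 and Foxa3 stood at 16.6 ± 3.83 and 40.4 ± 7.40 CPM in FOXA2f/f and at 18.2 ± 1.43 and 43.2 ± 8.39 CPM in FOXA2H-KO. Their log2 fold changes were 0.13 (SE 0.19) and 0.10 (SE 0.19). Hnf4a, the hepatocyte master regulator, had -0.06 (SE 0.16), Cebpb 0.35 (SE 0.30) and the corepressor gene Trim24 0.40 (SE 0.18). Zhx2, a factor that is known to set Mup levels, stood at 14.5 ± 0.116 CPM against 15.9 ± 0.463 CPM, without overlap, with a log2 fold change of 0.13 (SE 0.13, edgeR adjusted p = 0.983).

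**Figure D5:**
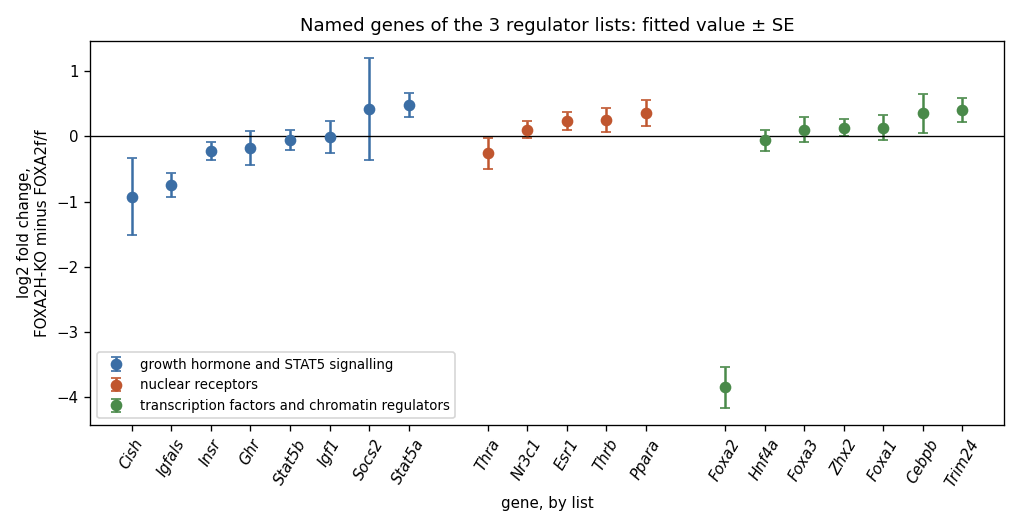
Fitted log2 fold change (FOXA2H-KO minus FOXA2f/f) ± SE of the named genes of 3 lists, blue for growth hormone and STAT5 signalling, orange for nuclear receptors and green for transcription factors and chromatin regulators. Foxa2 at -3.85 lies farthest from 0, and the other named genes lie between -0.93 and 0.48.

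The Mup genes are male-biased in mouse liver, so other sex-biased genes were read beside them. Of 22 other male-biased genes tested, 8 were higher and 14 lower by fit, with a median log2 fold change of -0.29. The libraries did not overlap in 8 of them, 1 higher and 7 lower, against 10.5% of all genes in either direction. By edgeR 0 were called and 9 had an unadjusted p under 0.05, against 5.17% of all genes. Cib3 stood at 11.6, 7.35 and 11.4 CPM against 4.63, 3.89 and 1.85 CPM (log2 fold change -1.54, SE 0.36), and Selenbp2 at 115, 219 and 124 CPM against 70.9, 39.6 and 100 CPM (-1.12, SE 0.37). Arsa, the lysosomal arylsulfatase A gene, had -0.73 (SE 0.18), and the sulfotransferase gene Sult1d1 had 0.84 (SE 0.28). The smallest adjusted p of this list by edgeR was 0.607.

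Of 22 female-biased genes tested, 13 were higher and 9 lower, with a median of 0.19, and the libraries did not overlap in 6 higher and 2 lower genes, against 10.5% of all genes in either direction. Cyp17a1, a steroid hydroxylase and lyase, stood at 0.515, 0.110 and 0.731 CPM against 13.2, 1.80 and 43.9 CPM (log2 fold change 5.32, SE 1.17). The acyl-CoA thioesterase gene Acot3 had 3.32 (SE 0.75) and the organic anion transporter gene Slc22a26 2.71 (SE 0.64). Cyp2a4, a steroid hydroxylase, went the other way, at 7.60, 11.9 and 16.5 CPM against 1.66, 4.61 and 2.17 CPM (-2.09, SE 0.44). By edgeR 0 of the 22 were called (smallest adjusted p = 0.579) and 7 had an unadjusted p under 0.05, against 5.17% of all genes. DESeq2 called these 4 genes, 3 of them higher, against 0.174% of all genes called higher. It also called the male-biased Cib3, and the DESeq2 adjusted p ran from 0.000549 to 0.00991. Over all genes DESeq2 called 75, 27 higher and 48 lower. With the other scalings, limma, the replicate block and left-out libraries, no adjusted p of these genes was under 0.05, and they reached 1.00. The other low-count filters were not read for single genes.

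Other lipocalins and small binding proteins were a further set. Of 16 tested, 8 were higher and 8 lower by fit, and the median was 0.01. By edgeR and by DESeq2 0 were called, and 2 had an unadjusted edgeR p under 0.05, against 5.17% of all genes. Rbp4, the plasma retinol carrier, stood at 2152 ± 703 CPM against 2030 ± 299 CPM, and the fitted log2 fold change was -0.08 (SE 0.28). Apom, which carries sphingosine-1-phosphate, had -0.32 (SE 0.22) and the complement lipocalin gene C8g -0.33 (SE 0.15). Obp2a, an odorant-binding lipocalin gene, stood at 0.472, 0.164 and 0.191 CPM against 0.588, 1.04 and 0.786 CPM, without overlap (1.53, SE 0.53), and Fabp7 had 0.82 (SE 0.32).

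Of 21 other abundant secreted proteins of the liver, 1 was higher and 20 lower by fit, with a median of -0.34, and the libraries did not overlap in 6 lower genes, against 10.5% of all genes in either direction. By edgeR and by DESeq2 0 were called, and 1 had an unadjusted p under 0.05. Alb stood at 113057, 124578 and 89394 CPM against 83490, 105803 and 111051 CPM (log2 fold change -0.12, SE 0.44). Apoh, Kng1, Trf and Serpinc1, for an apolipoprotein, a kininogen, transferrin and antithrombin, had -0.54 (SE 0.21), -0.57 (SE 0.26), -0.39 (SE 0.18) and -0.42 (SE 0.21). With library size alone in place of TMM the Alb value was 0.01, so its sign depended on the scaling.

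Genes beside the cluster gave the local background. Of the 10 nearest coding genes on each side, 15 were tested, 9 were higher and 6 lower, and the median was 0.08. By edgeR and by DESeq2 0 were called, and 1 had an unadjusted p under 0.05. Hsdl2 had the largest fitted value among the 4 with the smallest p, 0.53 (SE 0.23), with overlapping groups. Ptbp3, which encodes an RNA-binding protein, stood at 129, 112 and 117 CPM against 143, 136 and 156 CPM, without overlap (0.28, SE 0.13). Fkbp15 and Inip had 0.27 (SE 0.19) and 0.22 (SE 0.18).

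The genes whose log2 CPM most resembled the log2 summed Mup level over the 6 libraries were named by Pearson's r among 8283 genes with a mean of at least 10 CPM, as a description. The highest were Pdpk1 (0.990), Spc24 (0.983), Cgnl1 (0.977), Xpr1 (0.977), Rufy1 (0.974), Trappc10 (0.973), Idh3a (0.972) and Ap3m1 (0.972). All of them spanned a narrow range, as for Pdpk1 at 46.4, 54.8 and 45.8 CPM against 52.7, 50.9 and 53.9 CPM. The lowest were 1810013L24Rik (-0.984), the immunoglobulin genes Ighg2c (-0.981) and Ighg2b (-0.974), and Lmnb2 (-0.977). Ighg2c stood at 28.5, 5.21 and 44.5 CPM in FOXA2f/f against 4.74, 13.8 and 5.04 CPM in FOXA2H-KO. The libraries with the lowest Mup sums, FOXA2f/f replicates 1 and 4, thus had the highest values of this immunoglobulin gene. Over all 8283 genes the median r was 0.11. It was 0.60 for the 17 other male-biased genes at this level, -0.21 for 11 female-biased genes, -0.01 for 14 genes of growth hormone and STAT5 signalling and 0.23 for 8 nuclear receptors.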

How the data were processed

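The authors deposited, for 34745 Ensembl genes per library, whole-number fragment counts without normalization and FPKM. The deposited FPKM follow from the counts: after division by the library total each gene has 1 implied length (largest relative spread 4.37e-05 over 12052 genes). The submitters' processing notes name CASAVA 1.8, TopHat2 2.1.0, HTSeq, edgeR and mm10, without role. Annotation, strand and multi-mapping settings are not given in the sources used here. A table of the authors' own comparison was not used.

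The quasi-likelihood test of edgeR 4.0.16 under R 4.3.3 was fitted to 14417 genes that passed filterByExpr, with TMM factors and no replicate block. Genes were called where the p-value after Benjamini-Hochberg correction was below 0.05 and the fitted change reached 2-fold. CPM uses the TMM-adjusted library size. Alternatives were DESeq2 1.42.0, limma 3.58.1 on log2(FPKM + 1) for a mean FPKM of at least 1, other scalings and filters, a replicate block and each library left out. The test was checked on simulated counts. Correlations used log2(CPM + 0.1). The summed level is the log2 ratio of group means. Positions, transcripts and overlaps are from GENCODE M21, and promoter windows from RefSeq.

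The members and gene lists were chosen with earlier results of these data known. Named genes are Foxa2, the members, the 5 other Mup genes with most counts, the 4 genes with the smallest p in each list or beside the cluster plus 1 set of regulators and plasma proteins whatever their p, and the 8 genes most and 4 least correlated with the Mup sum. Nothing says that the libraries are from separate mice beyond their titles, so p-values measure the spread between these libraries. A gene that this rule and 1 list would give is not reported here, and the counts of that list are without it.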

Additional observations from a re-analysis of the deposited data

How the results depend on the processing

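The replicate numbers 1, 2 and 4 showed no sign of pairing the libraries. The correlation of deviations from the group means was -0.0688, 0.0262 and -0.226 for libraries of the same number. For libraries of different number it ran from -0.188 to 0.253. So few pairs cannot show whether libraries of the same number were handled together. Within numbers 1, 2 and 4 the summed Mup level differed by 1.78, -0.70 and 1.94 on the log2 scale, with a mean of 1.01. Without the block the difference of the group means of log2 CPM was also 1.01. The step from 0.74 thus came from averaging log2 values in place of CPM, not from the block. With the replicate block the median over the 10 members was 2.03 against 1.80. The called genes numbered 75 with DESeq2, 2 without a low-count filter and 0 with library size alone, with limma on FPKM and with the replicate block, against 1, and 0 to 6 when 1 library was left out, 6 of them without FOXA2f/f replicate 2. Foxa2 was no longer called with library size alone (-3.74, adjusted p = 0.124), limma on log2(FPKM + 1) (-1.95, adjusted p = 0.0958) or the replicate block (-3.88, adjusted p = 0.0536), and its value ran from -4.17 to -3.63 over left-out libraries, with adjusted p up to 0.499. Leaving out 1 library gave a summed Mup difference of 0.42 to 1.67 and a median of 1.39 to 2.58, the upper values without FOXA2f/f replicate 2. Over the other scalings and sums the summed difference stayed between 0.74 and 0.98. Library size alone moved the median of all genes from -0.012 to 0.104, and the Mup median to 1.98. Genes near 0 changed sign: Stat5b (0.04), Igf1 (0.11), Hnf4a (0.06), Rbp4 (0.06) and Alb (0.01) with library size alone, Stat5b (0.06), Igf1 (0.10), Hnf4a (0.06), Rbp4 (0.08) and Alb (0.00) with limma on FPKM, and with 1 library left out the values ran from -0.32 to 0.16 for Ghr, -0.15 to 0.03 for Stat5b, -0.47 to 1.07 for Socs2, -0.24 to 0.16 for Igf1, -0.02 to 0.31 for Foxa1, -0.06 to 0.25 for Foxa3, -0.13 to 0.00 for Hnf4a and -0.28 to 0.20 for Rbp4. Apart from the step of the summed level from 0.74 to 1.01, the causes of these changes were not tested. With 3 libraries per group and a 3.81-fold range of the Mup sum within FOXA2f/f, these data limit any statement on single members.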
